A study of Mus musculus with 12 samples.

Results

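The genes described here build, trigger and fuel the contraction of skeletal muscle, and they were followed through 6 groups of mouse samples. They are a list of 42 gene symbols, chosen by name, that leaves out the myosins and troponins. Earlier results of these data were known when the list was chosen. Its counts beside those of all genes are therefore descriptions, not independent evidence. The arrays carried a probe set naming only that gene for 41 of them, out of 18194 genes measured in all, and Xirp2 was not analysed here. Each gene was read from the probe set with its highest mean over all arrays. A probe set could be picked through the groups where it was high, so its differences may be larger than those of the gene's other probe sets. By role, 23 members belong to the sarcomere, 11 handle calcium, 5 supply energy or act as muscle enzymes, and 2 are ubiquitin ligases of muscle wasting.

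Total RNA was hybridised to 12 Affymetrix arrays, and each of 6 groups holds an array a and an array b. In the diet and genotype experiment, Smad3-/- mice on a mixed C57BL/6 and NIH Black Swiss background and wild-type C57BL/6 mice were each kept on a high fat diet (55% fat) or a regular diet, so the deletion and the background cannot be told apart. Smad3 is a transcription factor that carries TGF-beta signals to the nucleus. In the antibody experiment, mice of the strain given as C57J/B6, obese from the diet, received a TGF-beta antibody (clone 1D11, below "antibody") or control IgG (clone 13C4) by peritoneal injection, with 3 injections weekly over 8 weeks. By its title, the study asks if a block of TGF-beta and Smad3 protects mice from obesity and diabetes. The labels name no tissue, and nothing in them says whether the 2 arrays of a group are of different mice. The p-values below therefore measure only the spread between these arrays.

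The fat-cell hormone gene Adipoq lay between 13.01 and 14.18 log2 units on the 12 arrays, against array medians of 6.03 to 6.39. Medians and spreads differed between the 2 experiments, so levels are compared only within an experiment. No genotype difference of Smad3 passed at its brightest probe set. Its log2 difference was 0.17 ± 0.11 (SE) on the high fat diet (limma adjusted p = 0.409) and 0.23 ± 0.11 on the regular diet (limma adjusted p = 0.117). The second probe set of Smad3 had log2 levels of 5.88 and 6.05 in Smad3-/- and 5.98 and 6.00 in wild type on high fat, and 6.17 and 6.31 against 6.03 and 5.68 on the regular diet. The third overlapped between genotypes on both diets. Whether a probe set lies outside the deleted part was not tested. The labels therefore rest on their own word here, and "Smad3-/-" below means the arrays labelled so. Groups of 2 arrays limit the precision, with standard errors of 0.11 to 0.19 log2 for the members. The arrays measure pooled RNA, in which fewer cells of a type and less RNA per cell cannot be told apart.

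In a muscle fibre, a nerve impulse opens the voltage sensor in the membrane, which pulls open the ryanodine receptor and lets calcium out of the sarcoplasmic reticulum. Calcium then allows myosin to pull on actin filaments, which are anchored at Z-discs, capped at their free ends and held in register by giant proteins. A calcium pump ends the contraction, and creatine kinase, glycogen breakdown and myoglobin keep up the supply of energy. Muscle genes are known to be switched on by myogenic factors that bind E-boxes, by MEF2 and by serum response factor at CArG boxes. Fat depots normally hold little of this program, although brown fat cells and muscle cells share early precursors.

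RefSeq promoter windows of the build GRCm38.p6 were matched to 29 of the 41 members, as 34 windows of 250 bases that end at the gene's start, 4 members having several. 5 of them are shown, each 5' to 3' on the gene's own strand, with E-boxes (CANNTG on either strand), TATA boxes (TATAAA or its reverse complement) and CArG boxes in capitals. Ckm, Acta1 and Atp2a1 are shown because they gave the largest differences of their roles in 1 or more comparisons. Tpm2 is shown because it gave the largest of the 9 differences below 0 by genotype on the regular diet, and Mybph because it passed in neither genotype comparison nor with the antibody. Ckm is at chr7:19410844-19411093 (+), Acta1 at chr8:123894776-123895025 (-), Atp2a1 at chr7:126463074-126463323 (-), Tpm2 at chr4:43523555-43523804 (-) and Mybph at chr1:134193198-134193447 (+).
Ckm: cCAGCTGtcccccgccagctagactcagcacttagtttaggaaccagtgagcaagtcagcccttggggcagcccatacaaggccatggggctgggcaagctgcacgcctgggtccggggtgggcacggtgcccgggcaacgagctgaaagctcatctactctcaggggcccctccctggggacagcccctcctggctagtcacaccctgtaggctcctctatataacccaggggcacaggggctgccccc
Acta1: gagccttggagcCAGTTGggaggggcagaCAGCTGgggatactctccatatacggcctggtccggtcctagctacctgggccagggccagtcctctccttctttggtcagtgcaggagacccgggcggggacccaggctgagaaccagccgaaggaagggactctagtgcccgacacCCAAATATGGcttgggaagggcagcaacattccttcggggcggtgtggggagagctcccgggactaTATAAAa
Atp2a1: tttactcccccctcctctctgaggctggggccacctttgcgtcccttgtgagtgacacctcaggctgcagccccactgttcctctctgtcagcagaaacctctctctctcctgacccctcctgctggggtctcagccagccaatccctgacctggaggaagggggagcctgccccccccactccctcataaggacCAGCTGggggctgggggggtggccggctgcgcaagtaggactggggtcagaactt
Tpm2: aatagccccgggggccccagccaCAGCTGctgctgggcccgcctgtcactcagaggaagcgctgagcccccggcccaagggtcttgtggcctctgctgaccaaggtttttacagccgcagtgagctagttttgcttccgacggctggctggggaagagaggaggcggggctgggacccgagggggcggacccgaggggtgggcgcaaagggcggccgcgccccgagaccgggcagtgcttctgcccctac
Mybph: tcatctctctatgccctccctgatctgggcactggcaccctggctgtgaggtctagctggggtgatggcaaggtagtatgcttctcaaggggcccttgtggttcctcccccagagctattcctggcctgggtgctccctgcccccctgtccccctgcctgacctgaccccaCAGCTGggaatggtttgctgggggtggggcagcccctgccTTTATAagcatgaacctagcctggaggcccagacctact

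The form CAGCTG, which also counts as CANNTG, stood in 50.0% of member windows and in 13.0% of all 32851 promoter windows of the table. It is present in each of the 5 windows shown, in that of Mybph too. CANNTG in any form stood in 82.4% of member windows and 66.2% of all. The CArG box stood in 14.7% of member windows and 1.47% of all, and the MEF2 box in 11.8% and 0.508%. TATAAA was in 8.82% of member windows and 12.4% of all, and CATTCC, the M-CAT box, in 14.7% and 12.6%. These shares describe letters in a window and give no evidence of binding.

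Over the 41 members, the mean log2 level was 8.44 and 8.52 on the 2 Smad3-/- high fat arrays and 6.36 and 6.34 on the wild-type high fat arrays. On the regular diet it was 6.56 and 6.62 in Smad3-/- and 6.68 and 6.63 in wild type. It was 8.90 and 8.91 with the antibody and 5.72 and 5.70 with IgG. Thus 1 group of each experiment stood apart from the others. In the diet and genotype experiment Smad3-/- on high fat was the brightest group for 35 members, wild type on the regular diet for 5 (Actc1, Casq2, Tpm2, Jph2 and Fbxo32), Smad3-/- on the regular diet for Jph1 and wild type on high fat for 0. Members below the array's median, where signal may be mostly background and differences are compressed, numbered 4 and 5 on the Smad3-/- high fat arrays, 21 and 22 on the wild-type high fat arrays, 1 on each antibody array, and 25 and 26 on the IgG arrays.

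**Figure D1:**
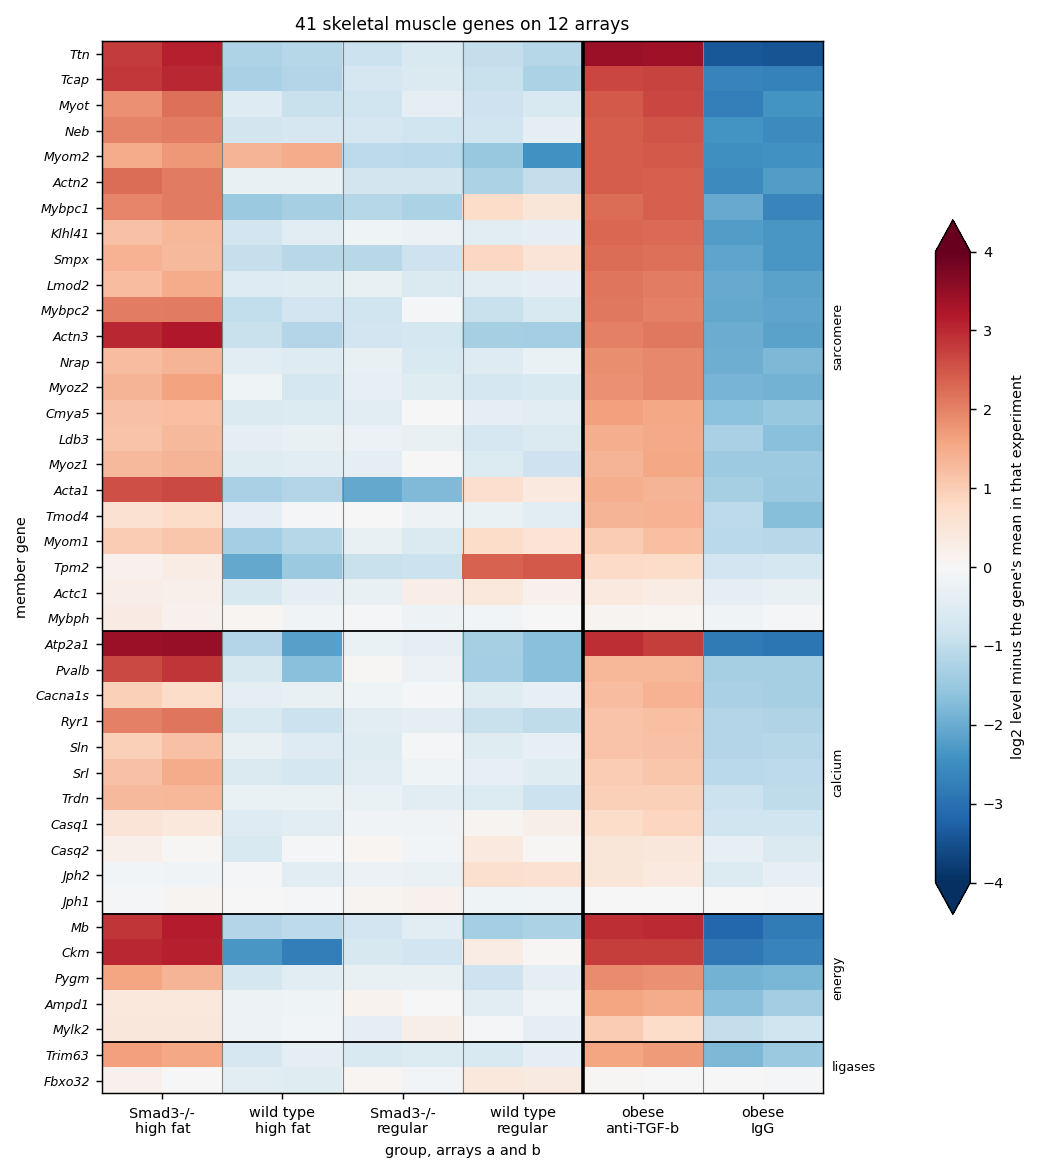
Log2 level of each of the 41 members on each of the 12 arrays, minus that gene's mean over the arrays of its experiment (colour, cut at -4 and 4). Rows are genes by role, columns are arrays a and b of each group, and the thick line parts the experiments. The Smad3-/- high fat and the antibody columns are red for most rows, and Tpm2 is reddest in wild type on the regular diet.

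On the high fat diet, Smad3-/- samples carried far more RNA of nearly the whole set than wild type. 36 of 41 members were higher and 0 lower (limma, adjusted p under 0.05 over all genes), where 4.74% of all 18194 genes were called higher and 6.05% lower. At an unadjusted p under 0.05, for which all genes were not counted, 38 members were higher and 0 lower. The median member difference was 1.92 log2, against -0.01 over all genes. None of the 36 called members overlapped between groups. Overlap was not counted over all genes. No called gene of any list counted here had it, so its absence adds nothing to the call. Leaving out any 1 array gave 34 to 36.

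Among energy genes all 5 were higher. Ckm, the creatine kinase that rebuilds ATP in muscle, had log2 levels of 11.90 and 11.99 in Smad3-/- and 6.55 and 6.09 in wild type. The groups lay far apart, and the difference of 5.62 ± 0.13 (49.3-fold, limma adjusted p = 1.26e-22) was the largest of the set. Mb, which encodes the oxygen store myoglobin, stood at 10.64 and 10.90 in Smad3-/- and at 6.60 and 6.73 in wild type. Pygm, the muscle enzyme that breaks down glycogen, was higher by 2.05 ± 0.14. The smallest differences of the role were those of Ampd1, an AMP deaminase, at 0.62 ± 0.14, and Mylk2, the kinase of skeletal myosin light chains. Mylk2 had 6.40 and 6.42 in Smad3-/- against 5.76 and 5.83 in wild type, a difference of 0.61 ± 0.17 (limma adjusted p = 0.0154). Its call was lost when any 1 of these 4 arrays was left out, with adjusted p between 0.0657 and 0.118.

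Of 11 calcium genes 8 were higher and 0 lower, with a median difference of 1.47. Atp2a1, the fast-fibre pump that returns calcium to the reticulum, had log2 levels of 11.16 and 11.18 in Smad3-/- and 6.53 and 5.52 in wild type. The wild-type arrays lay further apart than those of any other group for this gene, yet both were far below, and the difference was 5.15 ± 0.18 (limma adjusted p = 4.22e-18). Pvalb, the calcium buffer of fast fibres, stood at 10.59 and 10.81 against 7.31 and 6.26, a difference of 3.92 ± 0.19. Both arms of the release machinery were higher, the ryanodine receptor Ryr1 by 2.80 ± 0.13 and the voltage sensor Cacna1s by 1.18 ± 0.14. Sln, a small protein that uncouples the pump, had 7.71 and 7.92 in Smad3-/- against 6.45 and 6.25 in wild type (difference 1.47 ± 0.15). Casq1, the calcium store protein of fast fibres, had 9.14 and 9.07 against 8.13 and 8.17 (difference 0.96 ± 0.11). The calls thus covered release, storage and reuptake. The 3 calcium genes that did not pass were Casq2, the slow and cardiac store protein, and the junctophilins Jph1 and Jph2, which tie the reticulum to the membrane. Casq2 had 6.46 and 6.30 in Smad3-/- and 5.65 and 6.20 in wild type, without overlap but with a difference of 0.46 ± 0.17 (limma adjusted p = 0.0814). It passed without wild-type high fat array b, at adjusted p = 0.012.

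Of 23 sarcomere genes 21 were higher and 0 lower, with a median difference of 2.02. Ttn, whose product titin spans from Z-disc to M-line, had log2 levels of 10.48 and 10.80 in Smad3-/- and 6.45 and 6.55 in wild type (difference 4.14 ± 0.13, limma adjusted p = 1.52e-19). Tcap, which caps titin at the Z-disc, was higher by 4.15 ± 0.12, with 11.46 and 11.64 against 7.34 and 7.46. Acta1, skeletal actin, stood at 12.93 and 12.99 in Smad3-/- and 9.05 and 9.19 in wild type. Its difference was 3.84 ± 0.11. Actn3, the fast-fibre alpha-actinin of the Z-disc, was higher by 4.13 ± 0.13, and Neb, the ruler of the thin filament, by 2.72 ± 0.15. The cardiac and fetal actin Actc1 gave the smallest called difference of the role, 0.75 ± 0.16, from 7.04 and 6.98 in Smad3-/- and 6.14 and 6.38 in wild type. The 2 that did not pass were Mybph, a relative of myosin-binding protein C (0.30 ± 0.14), and Myom2, an M-line protein of fast fibres. Myom2 was high in both groups, at 9.52 and 9.76 in Smad3-/- and 9.41 and 9.53 in wild type. The 2 ubiquitin ligases were both called. Trim63 (MuRF1) had 7.17 and 7.07 against 4.88 and 5.19, a difference of 2.09 ± 0.15. Fbxo32 (atrogin-1) had 7.44 and 7.25 against 6.83 and 6.76, a difference of 0.55 ± 0.12 that lost its call without Smad3-/- high fat array a (adjusted p = 0.0753).

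In obese mice, the antibody arrays carried more of the same set than the IgG arrays. 38 of 41 members were higher and 0 lower by limma, where 11.7% of all genes were called higher and 12.6% lower. The counts at an unadjusted p under 0.05 were again 38 and 0, with no count over all genes at that threshold. The median member difference was 3.06 log2, against a median of 0.00 over all genes to 2 decimals. None of the 38 called members overlapped between groups. Neither did any called gene of the other lists counted here, so this adds nothing to the call.

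Ttn gave the largest difference, with log2 levels of 11.29 and 11.22 with the antibody and 4.46 and 4.38 with IgG. That is 6.84 ± 0.13 (limma adjusted p = 1.59e-24), from IgG levels below the array medians, so the size is uncertain. The same holds for other members below with IgG levels under those medians, among them Mb, Atp2a1, Myot, Neb and Klhl41. Mb followed with 11.73 and 11.78 against 5.66 and 5.98 (5.94 ± 0.13). Atp2a1 had 11.21 and 11.01 against 5.40 and 5.35 (5.73 ± 0.18), and Ckm 11.95 and 11.94 against 6.33 and 6.52 (5.52 ± 0.13). In each of these the antibody arrays were close together and far above both IgG arrays. Sarcomere genes were higher in 22 of 23, with a median of 4.12. They included Myot, a Z-disc protein, by 5.11 ± 0.18, Neb by 4.95 ± 0.15, Klhl41, a stabiliser of nebulin, by 4.57 ± 0.14, and Acta1, with 13.05 and 12.94 against 10.28 and 10.11, by 2.80 ± 0.11. Calcium genes were higher in 10 of 11, including Jph2 (0.88 ± 0.12) and Casq2, with 6.61 and 6.58 against 5.80 and 5.56 (0.92 ± 0.17). Pvalb had 10.43 on both antibody arrays against 7.76 and 7.77, and Sln 6.96 and 6.97 against 4.64 and 4.68. Casq1 had 8.65 and 8.76 against 7.13 and 7.11 (1.58 ± 0.11). All 5 energy genes were higher, and Mylk2 had 7.21 and 6.90 against 5.23 and 5.38 (1.75 ± 0.17).

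Of the 2 ligases, 1 passed with the antibody. Trim63 had 7.57 and 7.67 against 4.18 and 4.50 with IgG, a difference of 3.28 ± 0.15. Fbxo32 had 7.59 and 7.54 against 7.57 and 7.50, overlapping, with a difference of 0.03 ± 0.12 (limma adjusted p = 0.893). Mybph (0.19 ± 0.14) and Jph1 (0.04 ± 0.12) also did not pass.

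Smad3-/- against wild type on high fat and antibody against IgG share no array. 35 members were higher in both, and Mybph and Jph1 passed in neither. At its second, dimmer probe set Jph1 was called higher by genotype on high fat (0.63 ± 0.18, limma adjusted p = 0.0263). Fbxo32 passed only by genotype, and Casq2, Jph2 and Myom2 only with the antibody, where the difference between the comparisons was not tested. Across the 41 members the 2 sets of log2 differences had Pearson's r of 0.72 and Spearman's rho of 0.70, against 0.52 and 0.27 over all 18194 genes. Genes are not independent replicates, and a probe set's brightness and compression are shared by both, so this is a description. The antibody difference was the larger for 30 of 41 members, in experiments with different medians and spreads. Myom2 departed most, at 0.17 ± 0.17 by genotype and 4.88 ± 0.17 with the antibody. Its levels were 9.29 and 9.30 with the antibody and 4.40 and 4.42 with IgG.

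**Figure D2:**
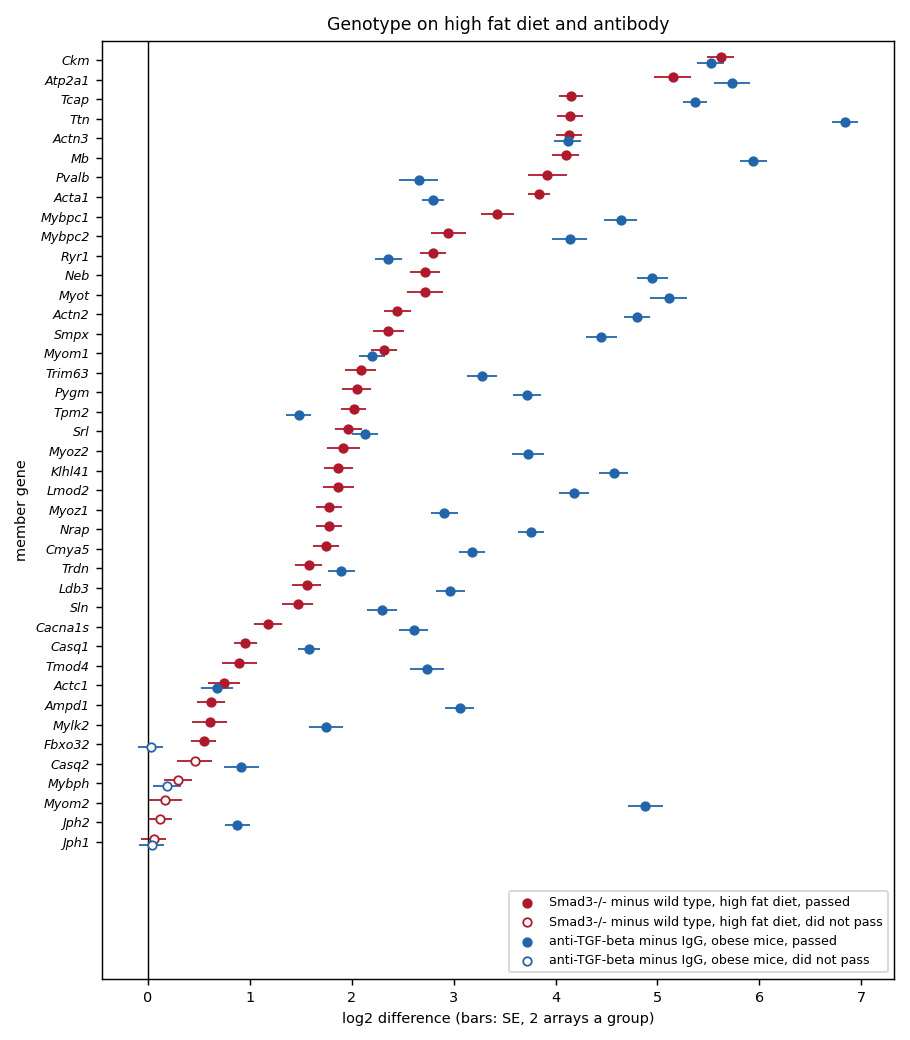
Log2 difference of each member for Smad3-/- minus wild type on high fat (red) and antibody minus IgG (blue), with the standard error as bars, 2 arrays a group. Filled points passed limma's adjusted p of 0.05. All points lie above 0, and the blue point is to the right of the red one for 30 of 41 members.

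Members typical of fast and of slow fibres both belonged to the higher genes. The 7 fast members (Atp2a1, Actn3, Mybpc2, Casq1, Pvalb, Myoz1 and Mylk2) were higher in 7 of 7 by genotype on high fat (median 2.95) and in 7 of 7 with the antibody (median 2.91). The 7 members typical of slow fibres, heart or embryonic muscle (Casq2, Myoz2, Mybpc1, Mb, Sln, Actc1 and Lmod2) were higher in 6 of 7 (median 1.87) and 7 of 7 (median 3.73). Myom2, another fast-fibre gene, is on neither of these lists and did not pass by genotype on high fat.

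On the regular diet the set did not move as one between genotypes. 10 members were higher in Smad3-/- and 9 lower, where limma called 8.40% of all genes higher and 15.6% lower. The median member difference was 0.21. This background depends on the scaling, with 1528 genes higher and 2833 lower here and 2438 and 2572 after quantile normalization over the 12 arrays. After that step 11 members were higher and 8 lower. Without Smad3-/- regular array b 6 were higher, and over all arrays left out in turn 6 to 11 were higher and 7 to 9 lower. Called groups did not overlap for any member. Nor did they for any called gene of the other lists counted here, so this adds nothing to the calls.

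The higher members were led by Pvalb, Atp2a1, Myom2 and Mb. Pvalb had log2 levels of 8.00 and 7.71 in Smad3-/- and 6.57 and 6.27 in wild type, a difference of 1.43 ± 0.19 (limma adjusted p = 9.14e-07). Atp2a1 had 7.42 and 7.35 against 6.38 and 6.04 (1.18 ± 0.18), and Myom2 had 6.98 and 6.97 against 6.53 and 5.62 (0.90 ± 0.17). Mb had 7.01 and 7.34 against 6.41 and 6.50 (0.72 ± 0.13). For Pvalb, Atp2a1 and Mb these differences were smaller than on high fat, and for Myom2 the difference on high fat had not passed. Actn3, Ryr1, Myoz1, Tcap, Actn2 and Trdn made up the rest, between 0.37 and 0.60. Of those, Actn2, Tcap, Trdn and Myoz1 lost the call without 1 array or another, with adjusted p up to 0.379, 0.22, 0.386 and 0.128.

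The lower members were Tpm2, Acta1, Mybpc1, Smpx, Myom1, Ckm, Jph2, Fbxo32 and Casq1. Tpm2, the beta-tropomyosin that winds round actin and is also made by smooth muscle, had log2 levels of 10.15 and 10.17 in Smad3-/- and 13.39 and 13.47 in wild type. That is a difference of -3.27 ± 0.12 (limma adjusted p = 5.78e-18), with both wild-type arrays above every other array of that experiment. Acta1 had 8.32 and 8.58 against 11.02 and 10.76 (-2.44 ± 0.11). Mybpc1, the slow myosin-binding protein C, had 5.78 and 5.65 against 7.66 and 7.42 (-1.83 ± 0.16), and Smpx, a small protein of striated muscle, 4.52 and 4.81 against 6.46 and 6.14 (-1.63 ± 0.15). Ckm had 8.24 and 8.09 against 9.18 and 8.93 (-0.88 ± 0.13). In all 5 the wild-type arrays were the higher pair without overlap. Fbxo32 had 7.33 and 7.15 against 7.69 and 7.61 (-0.41 ± 0.12), and lost its call without wild-type regular array a (adjusted p = 0.107) or Smad3-/- regular array b (0.144). Casq1 had 8.49 and 8.48 against 8.75 and 8.86 (-0.31 ± 0.11), and lost its call without any 1 of these 4 arrays, with adjusted p up to 0.203. Ttn (0.31 ± 0.13), Sln (0.13 ± 0.15), Casq2 (-0.23 ± 0.17), Mylk2 (0.15 ± 0.17) and Trim63 (-0.07 ± 0.15) did not pass. Ttn passed without Smad3-/- regular array a, at adjusted p = 0.0417.

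In wild type, more members were lower than higher on the high fat diet. 3 were higher and 11 lower on high fat by limma, where 4.69% of all genes were called higher and 6.11% lower, and the median member difference was -0.07. Tpm2 had 8.98 and 9.54 on high fat and 13.39 and 13.47 on the regular diet (-4.17 ± 0.12). Ckm had 6.55 and 6.09 against 9.18 and 8.93 (-2.74 ± 0.13). Mybpc1, Myom1 and Acta1 fell by 2.02, 1.90 and 1.77 log2, with standard errors of 0.11 to 0.16. Myom2 went the other way, at 9.41 and 9.53 against 6.53 and 5.62 (3.40 ± 0.17), and Actn2, the main muscle alpha-actinin, rose by 0.81 ± 0.13. Trdn, which joins the calsequestrins to the ryanodine receptor, rose by 0.44 ± 0.13, and Casq2 fell by 0.54 on the same scale, with an SE of 0.17. Both lost their call without 1 array: Trdn without wild-type regular array b (adjusted p = 0.357) or either high fat array (0.144 and 0.0948), Casq2 without wild-type regular array a (0.395) or high fat array a (0.56). Conversely, Atp2a1 passed as lower without wild-type high fat array a (-0.68, adjusted p = 0.00352) and Pvalb as higher without array b (0.89, adjusted p = 0.000196), the 2 arrays differing by about 1 log2 in both genes.

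The 9 members lower by genotype on the regular diet are all among the 11 lower with the diet in wild type, and these comparisons share the wild-type regular arrays. Smooth muscle markers moved with those arrays. The mean log2 level of 6 such markers (Myh11, Cnn1, Tagln, Acta2, Smtn and Des) was 11.69 and 11.62 on the wild-type regular arrays, 8.46 and 8.43 in Smad3-/- on the regular diet, 8.01 and 8.13 in wild type on high fat, and 8.94 and 9.06 in Smad3-/- on high fat. All 6 were lower in both comparisons. By genotype on high fat 5 of 6 were higher, and with the antibody 4 of 6, where their mean was 9.55 and 9.56 against 8.90 and 8.84 with IgG. The part of smooth muscle in the member calls was not tested.

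**Figure D3:**
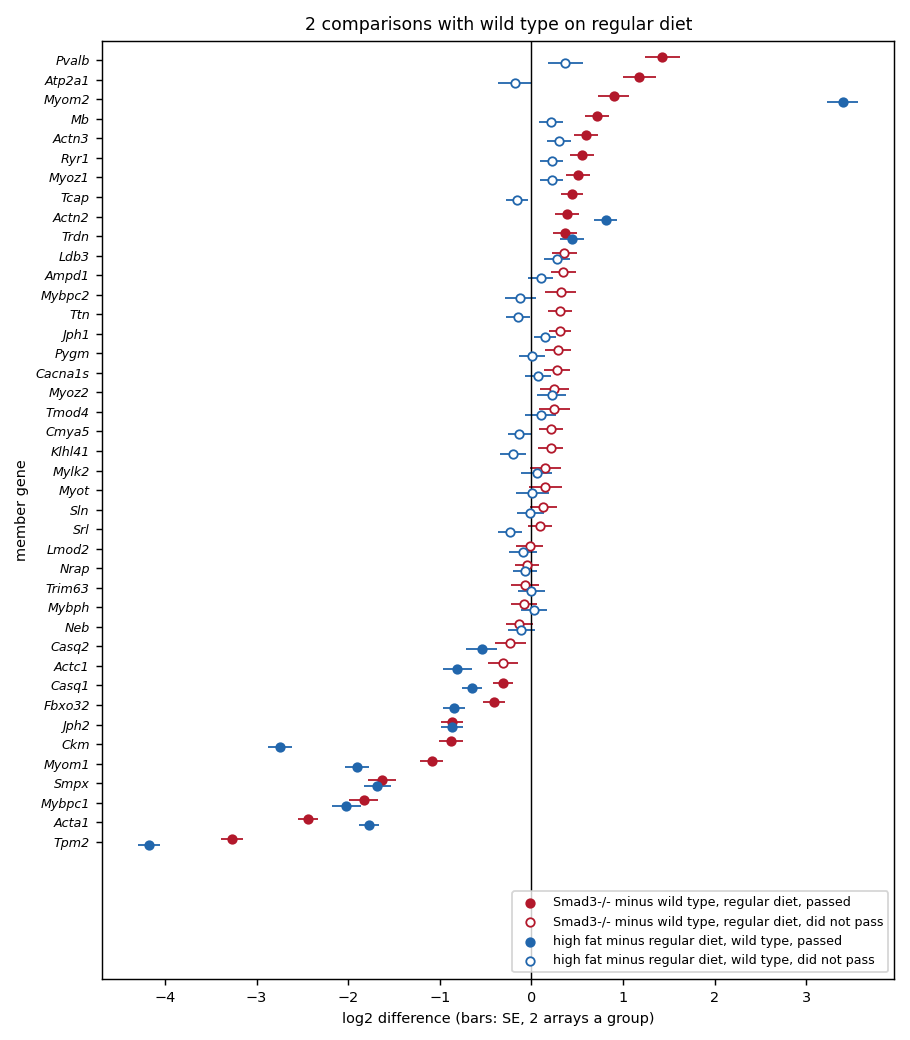
Log2 difference of each member for Smad3-/- minus wild type on the regular diet (red) and high fat minus regular diet in wild type (blue), with the standard error as bars, 2 arrays a group. Filled points passed limma's adjusted p of 0.05. The wild-type regular arrays enter both comparisons, and Tpm2 lies lowest in both, at -3.27 and -4.17.

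In Smad3-/- mice, the high fat diet came with higher levels of most members. 35 of 41 were higher and 0 lower by limma, where 11.5% of all genes were called higher and 5.82% lower. At an unadjusted p under 0.05 the members gave 36 and 0, with no count over all genes. The median member difference was 1.75. Acta1 had 12.93 and 12.99 on high fat and 8.32 and 8.58 on the regular diet (4.51 ± 0.11). Actn3 rose by 3.84 ± 0.13, Atp2a1 by 3.79 ± 0.18 and Ckm by 3.77 ± 0.13. The smallest calls were Casq1 (0.62 ± 0.11), Tmod4, a thin-filament cap (0.75 ± 0.17), Mylk2 (0.53 ± 0.17) and Mybph (0.41 ± 0.14). The last 3 lost theirs without 1 array: Tmod4 without Smad3-/- regular array b (adjusted p = 0.0539), Mylk2 without regular array a or either high fat array (0.115 to 0.522) and Mybph without any 1 of the 4 (0.0706 to 0.262). This comparison shares the Smad3-/- high fat arrays with that of genotype on high fat.

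The interaction test asks whether the genotype difference depended on diet. As a signed value, Smad3-/- minus wild type, it was higher on high fat than on the regular diet for 35 of 41 members and lower for 1, where limma called 12.0% of all genes in the first direction and 6.77% in the second. The median interaction was 1.82 log2. Marker lists gave calls here too, with smooth muscle higher in 6 of 6 (median 4.33), white fat higher in 3 of 3 (median 1.51) and epididymis lower in 5 of 5 (median -8.03), and their part in the member interactions was not tested. Ckm led with 6.51 ± 0.18 (limma adjusted p = 1.04e-20), then Acta1 with 6.27 ± 0.16, Tpm2 with 5.28 ± 0.17 and Mybpc1 with 5.25 ± 0.22. In these 4 the genotype difference was above 0 on high fat and below 0 on the regular diet, and each passed in both. For Atp2a1 (3.97 ± 0.26), Ttn (3.83 ± 0.18) and Pvalb (2.48 ± 0.27) the difference was above 0 on both diets and larger on high fat. Trim63 had 2.16 ± 0.21 and Fbxo32 0.96 ± 0.17. Casq2 (0.69 ± 0.23) lost its call without 5 of the 8 arrays taken singly, with adjusted p between 0.0572 and 0.319. Myom2, the 1 member with a call below 0 (-0.73 ± 0.24), lost it without 6 of them, at -0.28 and adjusted p = 0.398 without wild-type regular array b.

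**Figure D4:**
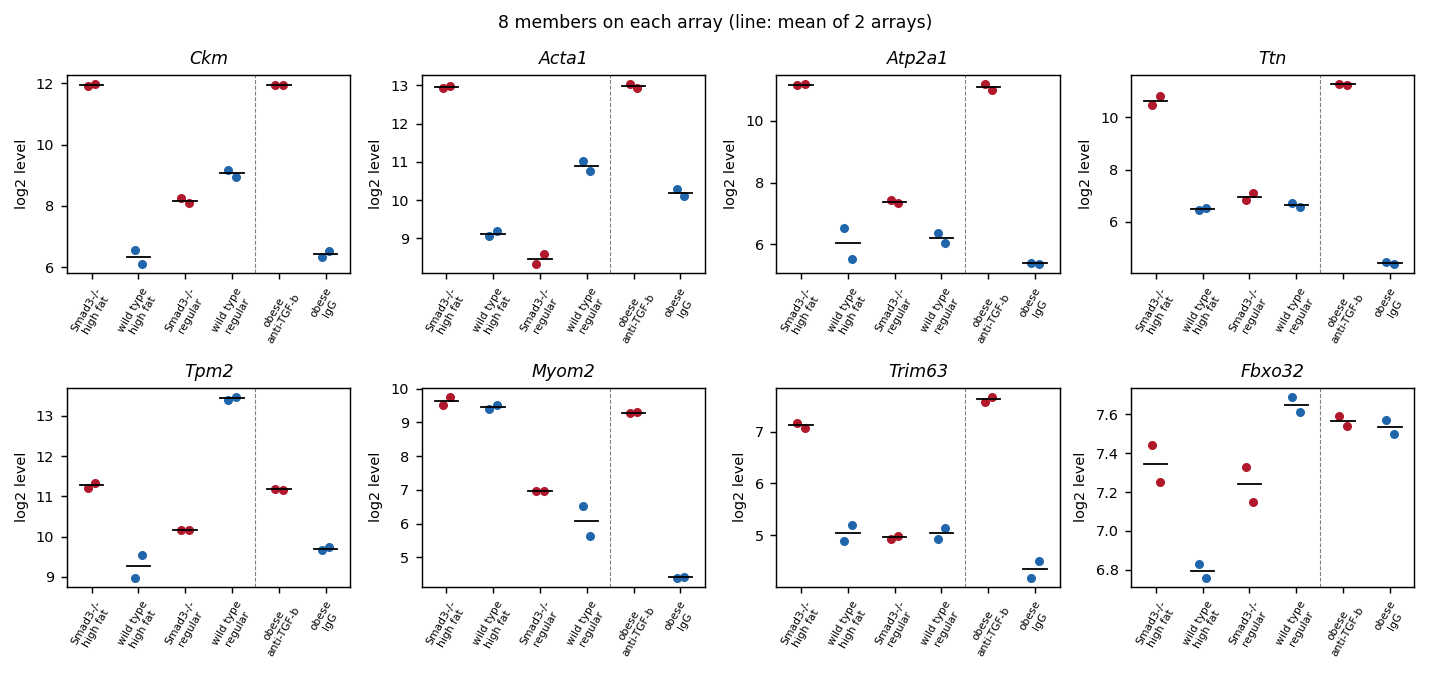
Log2 level of 8 members on each array, by group. Points are arrays, the line is the mean of 2, red marks Smad3-/- or antibody and blue wild type or IgG, the dashed line parts the experiments and each panel has its own axis, which does not start at 0. Ckm, Acta1, Atp2a1, Ttn and Trim63 are highest in Smad3-/- on high fat within their experiment, and Tpm2 and Fbxo32 are highest in wild type on the regular diet.

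Relatives of the members that are used outside skeletal muscle were called in both directions. The list is not free of striated muscle genes, as it holds Tpm1 and also Ryr2, a gene of the heart list below. Of 33 such paralogs 3 were higher and 5 lower in Smad3-/- than in wild type on high fat (median 0.03), and 6 higher and 8 lower with the antibody than with IgG (median -0.04). Ckb, the brain-type creatine kinase, had log2 levels of 8.87 and 9.18 in Smad3-/- and 9.91 and 10.08 in wild type on high fat, a difference of -0.97 ± 0.11. With the antibody Ckb was lower by 0.57 on the log2 scale (-0.57 ± 0.11). Among those higher was Tpm1, a tropomyosin that striated muscle also uses, by 2.45 ± 0.11 in Smad3-/- on high fat and by 1.26 ± 0.11 with the antibody. Pygl, the liver glycogen phosphorylase, was higher by 1.46 ± 0.11 in Smad3-/- on high fat. On the regular diet 19 of 33 paralogs were lower in Smad3-/- and 2 higher, led by 2 genes of smooth muscle, Mylk, the smooth muscle myosin light chain kinase, at -2.89 ± 0.11, and Acta2, smooth muscle actin, at -2.12 ± 0.10.

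Other genes of the muscle fibre were counted by role. Of 11 further energy genes 8 were higher in Smad3-/- on high fat and 10 with the antibody, with 0 lower in either. Eno3, the muscle enolase, was higher by 3.22 ± 0.12 and 3.33 ± 0.12, and Ckmt2, the sarcomeric mitochondrial creatine kinase, by 2.66 ± 0.14 and 5.24 ± 0.14. Of 8 further excitation genes 4 were higher and 1 lower in Smad3-/- on high fat, and 5 higher with the antibody, among them Hrc, a calcium-binding protein of the reticulum, by 1.20 ± 0.13 and 1.99 ± 0.13. Of 10 genes of the fibre membrane and its cytoskeleton 2 were higher in Smad3-/- on high fat, Des and Flnc (desmin, also on the smooth muscle list, 1.84 ± 0.12, and filamin C, 0.81 ± 0.11), and 5 with the antibody. Of 10 genes of the nerve contact 0 passed by genotype on high fat and 2 with the antibody. Those 2 were Chrna1, a subunit of the acetylcholine receptor (0.88 ± 0.17), and Dok7 (0.40 ± 0.11).

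Markers of other tissues moved with some of the same groups. The 10 skeletal myosins and troponins were all higher in Smad3-/- on high fat, with mean log2 levels of 9.82 and 9.95 against 5.29 and 5.25 in wild type. All were also higher with the antibody, at 10.55 and 10.64 against 4.88 and 4.91 with IgG. On the regular diet 5 of the 10 were higher in Smad3-/- and 1 lower. All 6 heart markers (Nppa, Myh6, Tnni3, Myl7, Tnnt2 and Ryr2) lay below the array's median on all 12 arrays. Brown fat markers were called higher in 5 of 6 in Smad3-/- on high fat and in 6 of 6 with the antibody. They were also higher in 5 of 6 in Smad3-/- on the regular diet, where 10 of the 41 members were higher and 9 lower. Ucp1, the brown fat uncoupling protein, had 12.44 and 12.32 there against 6.40 and 6.44 in wild type. The 3 white fat markers measured (Adipoq, Lep and Retn) were all lower in Smad3-/- on the regular diet (median -1.27) and all higher with high fat in Smad3-/- (median 1.17). By genotype on high fat 1 was higher and 1 lower, and with the antibody 2 were higher and 1 lower. Of 5 markers of myogenic cells 1 was higher by genotype on high fat and 3 with the antibody, with 0 lower by limma. Macrophage markers were lower in 4 of 5 in Smad3-/- on high fat and in 5 of 5 with the antibody. Epididymis markers, from a tissue next to the male gonadal fat depot, had mean levels of 13.27 and 13.32 in Smad3-/- on the regular diet, 9.00 and 9.07 in wild type on high fat, 7.65 and 7.89 in Smad3-/- on high fat and 5.92 and 5.73 in wild type on the regular diet. The part of these tissues in the member differences was not tested.

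**Figure D5:**
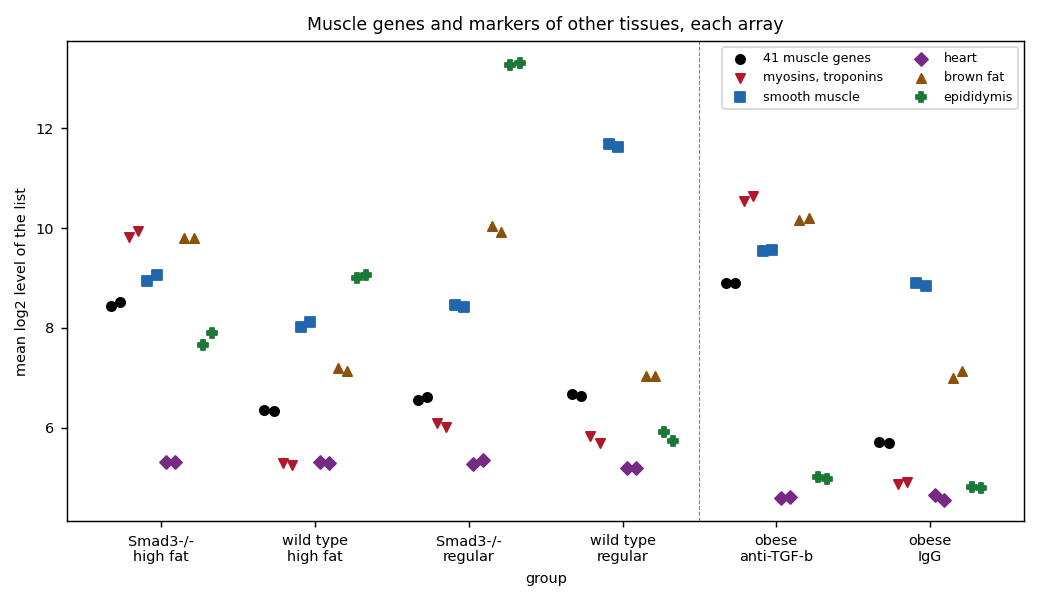
Mean log2 level of the 41 members and of 5 marker lists on each array, by group, with arrays a and b side by side. The dashed line parts the experiments. Members and myosins and troponins are high in Smad3-/- on high fat and with the antibody, smooth muscle markers are highest in wild type on the regular diet, epididymis markers are highest in Smad3-/- on the regular diet, and heart markers stay at 4.56 to 5.35.

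Controls for RNA quality were set beside these differences. The 3' minus 5' log2 difference of Gapdh was 0.39 and 0.37 in Smad3-/- and 0.36 and 0.50 in wild type on high fat, and 0.08 and 0.14 with the antibody against 0.02 and 0.10 with IgG. It was 0.28 and 0.41 in Smad3-/- and 0.12 and 0.14 in wild type on the regular diet, the lowest pair of that experiment. That of actin was 0.90 and 0.99 in Smad3-/- and 0.99 and 0.96 in wild type on high fat, but 0.87 and 0.75 with the antibody against 0.61 and 0.67 with IgG. On the regular diet it was 0.96 and 1.12 in Smad3-/- and 0.80 and 0.77 in wild type. The part of RNA quality in the antibody and regular diet calls was not tested.

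Of the members, 14 had several probe sets, 43 in all. Over their 29 further probe sets, 18 gave the same call as the brightest one for genotype on high fat, with 0 opposite. For the antibody 21 did, with 2 opposite. Both opposite calls were dim probe sets of Trdn, lower with the antibody by 1.29 and 0.34 on the log2 scale (-1.29 ± 0.15 and -0.34 ± 0.11). For the interaction only 13 gave the same call, and 16 for genotype on the regular diet, with 0 opposite in either. With diet it was 17 in wild type and 17 in Smad3-/-, again with 0 opposite. For Tpm2, 4 probe sets agreed for genotype on high fat (1.49 to 3.03) and for the antibody (1.48 to 5.11). On the regular diet they split, with genotype differences of -3.27 ± 0.13 and -4.55 ± 0.14 at the 2 brighter ones and of -0.26 ± 0.12 and -0.44 ± 0.16, which did not pass, at the 2 dimmer ones. Myom2 rose with the diet in wild type at 3 of 4 probe sets, by 2.49 to 3.74. For Ldb3, a Z-disc protein, the brightest probe set had a genotype difference of 0.36 ± 0.14 on the regular diet, which did not pass, and the dimmest had -1.51 ± 0.17, which did. The second Ckm probe set was higher with the antibody by 0.94 ± 0.13, and its genotype difference on high fat was 0.14 ± 0.13. For that comparison the second probe sets of Ryr1 and Mybpc1 gave 0.62 ± 0.13 and 0.95 ± 0.14, against 2.80 and 3.43 at the brightest. Their interactions were 0.48 ± 0.19, which did not pass, and 1.41 ± 0.20, against 2.26 and 5.25. For Ttn and Trdn the next brightest probe set stayed closer by genotype on high fat, at 3.88 ± 0.14 and 1.74 ± 0.14 against 4.14 and 1.58. Their remaining, dimmer probe sets did not. Those of Ttn gave 1.00, 0.72, 0.09 and 0.53, of which 0.09 did not pass. Those of Trdn gave -0.17, 0.55, 0.18 and 0.33, of which only 0.55 passed. The dimmer probe sets of Mb, Sln and Myoz1 gave 0.02, 0.29 and 0.12, against 4.10, 1.47 and 1.78 at the brightest, and did not pass.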

How the data were processed

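The 12 mouse samples gave 6 ug of total RNA each, per the labels, for 1 Affymetrix array a sample. The deposited values are log2 levels per probe set. Per the submitters' processing notes, the authors used RMA and Partek, with versions not given in the sources used here. No detection calls were used. Genes were assigned by the platform annotation (probe sets: 34958 of 45101 named 1 gene, 932 several, 9211 none). Each gene took its probe set with the highest mean over 12 arrays, which gave 18194 genes. Samples were grouped by the labels. The members and all gene lists were chosen with earlier results of these data known, and the lists are descriptions by count and median with no test of their own.

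The tests used limma 3.58.1 under R 4.3.3. One linear model over all 12 arrays had a mean for each of 6 groups, with moderated variances that follow intensity (6 residual and 20.4 prior degrees of freedom). Two-sided p-values were adjusted by Benjamini-Hochberg across the 18194 genes, and an adjusted p under 0.05 was called. The procedure was tested on simulated data. The genes in full were 11 members, chosen with earlier results known, plus the 4 highest and 4 lowest called members per comparison. Those highest and lowest members had no overlap between groups, which was not asked of the interaction. Up to 4 genes of each other list were added by unadjusted p. Others are named after their values were seen. Alternatives covered eBayes settings, dim probe sets, the choice of probe set, scaling, the arrays fitted, weights, the replicate letter as a block, a minimum of 1.5-fold, and each array left out. The number of arrays limits the precision. RefSeq promoter windows (250 bases before the start, GRCm38.p6) were searched for motifs on both strands.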

Additional observations from a re-analysis of the deposited data

Results flagged for a closer look

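The genotype difference depended on diet by limma's interaction test. The signed difference, Smad3-/- minus wild type, was higher on high fat than on the regular diet for 35 members and lower for 1, Myom2. Higher is not always larger in size, as for Tpm2 (2.02 on high fat and -3.27 on the regular diet) and Jph2 (0.12 and -0.87). The interaction, in log2 units as the genotype difference on high fat minus that on the regular diet, was 6.51 for Ckm, 6.27 for Acta1, 5.28 for Tpm2 and 5.25 for Mybpc1, where the genotype difference had opposite signs on the 2 diets. It was 3.97 for Atp2a1, 3.83 for Ttn, 2.48 for Pvalb, 2.16 for Trim63, 1.33 for Sln and 1.27 for Casq1. The smaller ones were 0.96 for Fbxo32, 0.90 for Cacna1s, 0.69 for Casq2 and -0.73 for Myom2, and the last 2 lost their call without 1 array or another. These values are of the brightest probe set. At the second one Ckm (0.13 ± 0.19), Sln (-0.03 ± 0.22) and Fbxo32 (0.19 ± 0.22) did not pass. Ttn (3.35 ± 0.20), Mybpc1 (1.41 ± 0.20), Tpm2 (7.22 ± 0.20) and Myom2 (-1.06 ± 0.29) passed there. Groups of 2 arrays were not tested for outlying arrays.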

How the results depend on the processing

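The 246 pairs of member and comparison were recomputed under 25 alternatives, except where a filter removed the member or a left-out group ended the comparison. Of these values 5641 kept their side of the threshold, 133 lost the call, 29 gained it and 17 reversed. A change of sign counted as reversed only where the difference passed in the main fit or in the alternative. The 5641 therefore include changes of sign among differences that passed in neither. The member counts that moved by over 1.5 times were these. With the dimmest probe set of each gene, the genotype comparison on the regular diet had 4 higher and 4 lower. Over all 18194 genes that setting gave 1012 higher and 1485 lower. With diet in wild type 1 member was higher (550 of all genes), and the interaction had 0 lower (832 of all genes). With a minimum of 1.5-fold (limma's treat), the regular diet genotype counts were 2 higher and 5 lower (285 and 656 over all genes). With diet in wild type they were 1 higher and 6 lower (175 and 160 over all genes). The interaction had 0 lower (374 over all genes). The interaction also had 0 lower without an intensity trend and with arrays centred on their medians. A filter at the 40th percentile of the mean over 12 arrays left 27 members, so fewer genes were tested. Of these, 25 were higher with the antibody and 23 with diet in Smad3-/-, where 1790 and 2126 of 10916 genes were called higher. A member could pass the filter through the groups where it was high, so the shares among the 27 are partly set by the filter. Leaving out each of 12 arrays in turn gave 6 to 11 higher and 7 to 9 lower for genotype with the regular diet, 34 to 36 and 0 by genotype on high fat, 38 and 0 with the antibody, 2 to 3 and 10 to 11 with diet in wild type, 33 to 35 and 0 with diet in Smad3-/-, and 34 to 36 and 0 to 1 in the interaction. The lone array left in a group was assumed to vary like the other groups.

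With the dimmest probe set, differences reversed for Ckm (0.01), Ldb3 (-1.51) and Trdn (-0.06) by genotype on the regular diet, for Trdn (-0.26), Sln (-0.22) and Mb (-0.15) with the antibody, for Ckm (0.12), Ldb3 (-0.86) and Trdn (-0.14) with diet in wild type, for Myom2 (-0.0035), Myoz1 (-0.06), Mb (-0.29) and Jph1 (0.66) with diet in Smad3-/-, and for Sln (-0.03), Myoz1 (-0.10) and Mb (-0.26) in the interaction. At the dimmest probe set only the values of Ldb3 and Jph1 passed. The other reversals did not pass there, so they are lost calls and not calls in the opposite direction. Averaged over its probe sets, Ldb3 reversed by genotype on the regular diet (-0.48). The cause was not tested.

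With the replicate letter as a block, all member counts were as without it (36 higher and 0 lower by genotype on high fat, 38 and 0 with the antibody, 10 and 9 for the regular diet genotype comparison), and no call of a member changed. Deviations of same-lettered arrays correlated between -0.16 and 0.17, so the letters show no pairing. Fits without the wild-type or the Smad3-/- regular group, chosen after seeing the data, changed no call of a member. Levels near the array median limit how far differences of dim members can be sized.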
